A study of Mus musculus with 4 samples.

Results

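The 10 genes described here encode receptors with which phagocytes recognise dying cells, debris and modified lipoproteins, and the soluble proteins that bridge such receptors to their cargo. They are Mertk, Msr1, Cd36, Megf10, Stab1, Colec12, Scarb1, Mfge8, Gas6 and Pros1. Their rows were taken by gene symbol, and the list was chosen with earlier results of these data known. They are 10 of the 40091 genes listed over 4 single-nucleus RNA sequencing (snRNA-seq) libraries of mouse thalamus. Nuclei of the NS group (C1 and C2, here NS replicates 1 and 2) came from wild-type mice injected with saline, and nuclei of the COL group (M1 and M2, here COL replicates 1 and 2) from wild-type mice injected with Coll IV, a collagenase that breaks down the basement membrane of vessels and causes bleeding. The dose was 0.01 U of Coll IV in 10 nl, given to the VPM and VPL nuclei of the right thalamus, the mice were 7 to 8 weeks old at the start, and tissue was taken 7 days after the injection. Each library pooled 3 mice of a group, so the library was the replicate (n = 2 per group), and a two-sided exact permutation test of 2 libraries against 2 cannot give a p below 0.333.

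Apoptotic cells display phosphatidylserine on their outer membrane, and phagocytes bind it either directly or through bridging proteins. Gas6 and Pros1 bridge phosphatidylserine to MERTK, a receptor tyrosine kinase that microglia and astrocytes use for engulfment, and MFG-E8 (Mfge8) bridges it to integrins. MEGF10 is an engulfment receptor best known in astrocytes, whereas MSR1, CD36, Stabilin-1 (Stab1), COLEC12 and SR-B1 (Scarb1) are scavenger receptors of different structural classes that bind oxidised or acetylated lipoproteins, collagenous proteins or high-density lipoprotein.

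All 10 are annotated as protein-coding genes in GENCODE M21 on the GRCm38 (mm10) build. Mertk lies at chr2:128698956-128802894 on the plus strand, Gas6 at chr8:13465374-13494490 on the minus strand, Pros1 at chr16:62854307-62929346 on the plus strand and Mfge8 at chr7:79133768-79149060 on the minus strand. Megf10 and Colec12 share a chromosome, at chr18:57133090-57297467 and chr18:9707595-9882644, both on the plus strand. Msr1 lies at chr8:39581685-39642673, Cd36 at chr5:17781690-17888801, Stab1 at chr14:31139013-31168641 and Scarb1 at chr5:125277087-125341094, all on the minus strand. Genes on the opposite strand overlap Stab1 (Nt5dc2), Gas6 (Tmem255b), Mertk (Gm14011) and Colec12 (3 genes), and genes on the same strand overlap Mertk (1), Scarb1 (1) and Colec12 (4). How reads in overlaps and introns were counted is not given in the sources used here, so the counts of these 5 genes could include reads of a neighbour.

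After filtering, 9673 and 10422 nuclei remained in the NS libraries and 5931 and 6265 in the COL libraries, with a median of 4649 to 6489 UMIs (unique molecular identifiers, each a counted RNA molecule) per nucleus in NS and 8664 to 8691 in COL. Depth therefore differed between the groups, and levels are given as CPM (counts scaled to 1000000 UMIs) of a cell type in a library, with raw UMIs where they were few. Of 32230 distinct barcodes, 102 occurred in more than 1 library. Cell types were named from marker genes after clustering without the 10 genes and the other genes of the pathway. NS and COL nuclei of the same type mostly fell into different clusters. Neurons of NS were mainly in clusters 0 and 5 and those of COL in cluster 2. Neuron cluster 7 was shared, with 238 and 614 nuclei in NS and 671 and 314 in COL. Cluster 5 held 1634 nuclei of NS replicate 1 but 290 of NS replicate 2. Oligodendrocytes of NS were mainly in clusters 1 and 8 and those of COL in clusters 3 and 12. In the same order, astrocytes were in cluster 4 against 14, OPC (oligodendrocyte precursor cells) in clusters 15 and 11 against 11, and microglia in cluster 13 against clusters 10 and 21. Macrophages numbered 2 and 5 nuclei in the NS libraries and 317 and 470 in the COL libraries, so their levels are given for COL and were not compared between the groups.

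In microglia, Msr1, Cd36, Stab1, Colec12 and Gas6 were higher in COL. Pros1 and Stab1 were higher in astrocytes, oligodendrocytes and OPC, Mertk was higher in oligodendrocytes and OPC, Msr1 was higher in oligodendrocytes, and Mfge8 was lower in astrocytes and oligodendrocytes. Counts are those of edgeR's quasi-likelihood F test on UMIs summed per library and cell type, at a Benjamini-Hochberg adjusted p below 0.05 over all genes tested in that type. In microglia 9 of the 10 genes passed the filter on low counts and 5 were called, against 28.9% of all 12105 genes tested. In oligodendrocytes 5 of 9 were called (4 higher, 1 lower), against 22.3% of 17138 genes. In astrocytes 3 of 8 were called (2 higher, 1 lower), against 18.9% of 14635 genes, and in OPC 3 of 8, all higher, against 18.5% of 13426 genes. In neurons 0 of 10 were called, against 0% of 23257 genes, although 6 of the 10 and 6562 of all genes had an unadjusted p below 0.05 and DESeq2 called 5 of the 10 and 2295 of all genes. Of 11 alternative settings in neurons, 5 called Stab1, 4 each Mertk and Msr1, 3 each Gas6 and Mfge8, and 2 Colec12. Without COL replicate 2 edgeR called 6 of the 10 and 3646 of 24429 genes in neurons, and without COL replicate 1 it called 1 of the 10 and 31 of 24466 genes. In vascular nuclei 0 of the 5 tested were called, against 0.37% of 5142 genes, with 1 of the 5 and 899 of all genes under an unadjusted p of 0.05, and 0 of the 5 and 34 of all genes called by DESeq2. Some genes passed the filter through the COL libraries alone, so that a difference was built into their being tested. These were Msr1, Cd36 and Colec12 in microglia, Msr1 and Stab1 in oligodendrocytes, Stab1 in astrocytes and OPC, Msr1 in neurons and Megf10 in vascular nuclei. Without them, 2 of 6 genes were called in microglia, 3 of 7 in oligodendrocytes, 2 of 7 in astrocytes and 2 of 7 in OPC. The shares over all genes given above still include genes that passed in this way, so these reduced counts have no matching share.

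**Figure D1:**
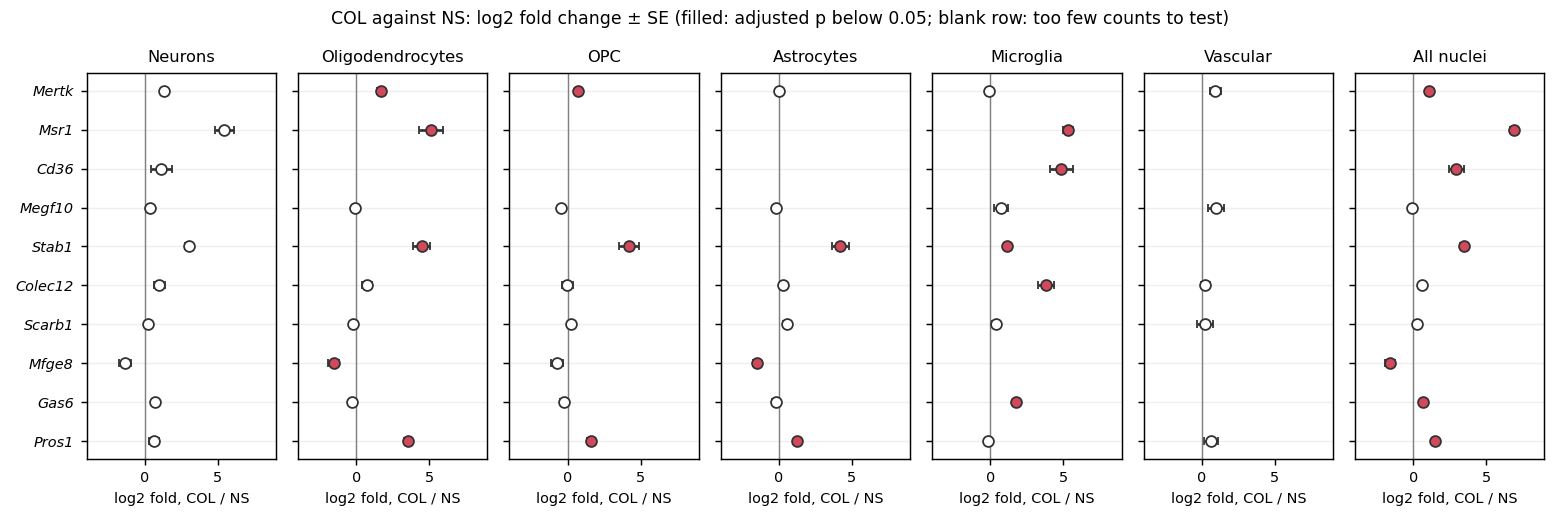
Log2 fold change of COL against NS (horizontal axis, with bars of ± 1 SE) of the 10 genes in each of 6 cell types and over all nuclei, from edgeR on 2 libraries per group. Filled points had an adjusted p below 0.05, and a missing point is a gene that did not pass the filter on low counts. Of the points, 7 are filled over all nuclei, 5 each in microglia and oligodendrocytes and 3 each in astrocytes and OPC, and none is filled in neurons or vascular nuclei.

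Among the cell types compared, Mertk was highest in microglia, followed by astrocytes in NS and by macrophages and then astrocytes in COL. Its level in microglia and astrocytes did not separate the groups clearly. In microglia it stood at 1835 and 1792 CPM in the NS libraries and at 1668 and 1642 CPM in the COL libraries. Both COL values lay below both NS values, but the difference was small next to the spread estimated by edgeR (log2 fold change -0.08 ± 0.14 SE, adjusted p = 0.693). Per nucleus, microglia held 4.25 and 3.74 Mertk UMIs in NS and 7.78 and 8.50 in COL, which runs opposite to the CPM and moved with the depth of the nuclei. After thinning each nucleus to 1000 UMIs, 77.1% and 78% of NS microglia and 74.7% and 75.2% of COL microglia held a Mertk UMI.

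The COL microglia were not uniform in Mertk. The larger COL cluster (10) held 1869 and 1929 CPM, close to the 1834 and 1825 CPM of the NS cluster (13), whereas the cluster of dividing microglia (21), with 74 and 125 nuclei in COL, held 1208 and 1100 CPM. Macrophages of the COL libraries held 495.8 and 664 CPM of Mertk, below COL microglia in each library. In astrocytes Mertk was at 319.7 and 361 CPM in NS and at 361.2 and 322.9 CPM in COL, with overlapping groups (log2 fold change -0.02 ± 0.16 SE, adjusted p = 0.961).

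Higher Mertk in COL was seen where its level was low. Oligodendrocytes held 5.69 and 6.85 CPM in NS and 15.9 and 23.1 CPM in COL, with no overlap (log2 fold change 1.69 ± 0.26 SE, adjusted p = 0.00656). OPC rose from 83.0 and 82.7 CPM to 147.3 and 120.4 CPM (log2 fold change 0.71 ± 0.17 SE, adjusted p = 0.0113), a call that was lost without NS replicate 1 (adjusted p = 0.0966), with doublets removed (0.0516) and with nuclei thinned to 2000 UMIs (0.11). In neurons Mertk was at 5.30 and 6.19 CPM in NS and at 10.5 and 15.4 CPM in COL, and this difference was not called (adjusted p = 0.104).

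The COL effect on Mertk differed between cell types. In a fit of all types with the library as a block, the effect in oligodendrocytes exceeded the mean effect in the other 5 types by 1.13 on the log2 scale (adjusted p = 0.00343), which was lost without NS replicate 1 (adjusted p = 0.0742) or NS replicate 2 (0.0866). For microglia the difference from the other types was -0.89 (adjusted p = 0.00116) and for astrocytes -1.02 (adjusted p = 0.000881). Of the 10 genes, 5 differed in this way in microglia, against 7.11% of 18537 genes, 2 in astrocytes, against 3.44%, and 2 in oligodendrocytes, against 3.39%. There was 1 such gene in neurons, against 4.14%, and 1 in OPC, against 1.7%, while 0 of the 10 did so in vascular nuclei, against 1.14%. Each type was set against the mean of the others, so a large effect in 1 type moves the differences of the rest the opposite way. These counts are therefore not independent between types.

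Gas6, a vitamin K-dependent ligand of MERTK and its relatives AXL and TYRO3, rose in microglia. It stood at 49.8 and 44.7 CPM in NS microglia and at 151.2 and 152.0 CPM in COL microglia. The COL libraries were 3.2 times the NS libraries (counting interval 2.5 to 4.17), and the groups did not overlap (log2 fold change 1.73 ± 0.20 SE, adjusted p = 7.26e-05). The level was alike in the larger COL cluster (150.2 and 150.9 CPM) and in the dividing one (153.1 and 155.4 CPM), and the COL macrophages were lower, at 44.7 and 57.2 CPM. Microglial Gas6 differed from the other cell types in its COL effect by 1.85 on the log2 scale (adjusted p = 5.4e-05).

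Outside microglia, Gas6 showed no called difference within a cell type. Neurons, which held 60.5% to 70.3% of all Gas6 UMIs in every library, were at 32.9 and 38.3 CPM in NS and at 55.5 and 48.5 CPM in COL. The groups did not overlap, but the adjusted p was 0.109. A neuron-like cluster of 1929 nuclei, set apart from the neurons, held a further 6.6% to 17.7% of Gas6 UMIs. Oligodendrocytes held 15.6 and 14.8 CPM in NS and 10.6 and 13.1 CPM in COL (log2 fold change -0.28 ± 0.22 SE, adjusted p = 0.374). Over all nuclei Gas6 was called higher (30.5 and 31.6 against 45.0 and 45.1 CPM, log2 fold change 0.69 ± 0.15 SE, adjusted p = 0.0429), and this call was lost without NS replicate 1 (adjusted p = 0.171), without NS replicate 2 (0.0766) and without COL replicate 1 (0.0897).

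Pros1, which encodes protein S, the other bridging ligand of MERTK, moved in other cell types than Gas6. In oligodendrocytes it stood at 6.10 and 6.05 CPM in NS and at 74.7 and 56.8 CPM in COL. The COL libraries together were 10.8 times the NS libraries (counting interval 8.89 to 13.2), without overlap (log2 fold change 3.52 ± 0.24 SE, adjusted p = 0.000554). The share of oligodendrocytes with a Pros1 UMI at 1000 UMIs per nucleus was 0.52% and 0.398% in NS and 6.58% and 5.39% in COL.

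OPC and astrocytes showed a rise of Pros1 as well. OPC went from 20.5 and 24.2 CPM to 72.2 and 59.6 CPM (log2 fold change 1.58 ± 0.22 SE, adjusted p = 0.000728). Astrocytes went from 21.8 and 25.1 CPM to 60.7 and 51.8 CPM (log2 fold change 1.24 ± 0.22 SE, adjusted p = 0.0043). In neither type did the groups overlap.

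In CPM, microglia had the highest Pros1 level of the cell types compared in each library, and there it was not called different. It stood at 311 and 301.9 CPM in NS and at 297.1 and 220.7 CPM in COL, with COL replicate 2 below the other libraries (log2 fold change -0.20 ± 0.17 SE, adjusted p = 0.424). COL macrophages held 42.7 and 45.6 CPM. The effect in oligodendrocytes exceeded that of the other types by 2.73 on the log2 scale (adjusted p = 5.01e-07). That in microglia was below the mean of the other types (log2 difference -1.59, adjusted p = 1.96e-05), a mean that includes the rise in oligodendrocytes. Oligodendrocytes held 4.13% and 9.18% of all Pros1 UMIs in the NS libraries and 33.6% and 25.1% in the COL libraries.

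Mfge8 was the member that fell. In astrocytes it stood at 46.9 and 36.6 CPM in NS and at 11.5 and 16.8 CPM in COL. The groups did not overlap (log2 fold change -1.55 ± 0.26 SE, adjusted p = 0.00363). In oligodendrocytes it was at 10.0 and 6.05 CPM in NS and at 1.91 and 3.15 CPM in COL (log2 fold change -1.56 ± 0.37 SE, adjusted p = 0.0219), a call that was lost without NS replicate 1 (adjusted p = 0.124) and with nuclei thinned to 2000 UMIs (0.0638).

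Astrocytes made up 12.5% and 10.4% of the nuclei in the NS libraries and 4.25% and 5.12% in the COL libraries. The part of astrocyte RNA in the low Mfge8 level of oligodendrocytes was not tested. In the other cell types no difference in Mfge8 was called. Vascular nuclei held 5 and 6 UMIs in NS (50.3 and 26.5 CPM) and 3 and 2 in COL (14.0 and 6.53 CPM), which was not tested. Microglia held 8 and 5 UMIs in NS and 5 and 15 in COL, too few to be tested, and OPC stood at 10.9 and 10.2 CPM in NS and 4.73 and 7.41 CPM in COL (adjusted p = 0.24). Neurons held 29.4% to 35.3% of all Mfge8 UMIs of a library, at 4.89 and 3.01 CPM in NS and at 0.903 and 1.84 CPM in COL (adjusted p = 0.115). The neuron-like cluster set apart held a further 4.17% to 7.16%. Over all nuclei the level was 8.64 and 5.94 CPM against 1.51 and 2.94 CPM (log2 fold change -1.58 ± 0.33 SE, adjusted p = 0.0374), which was not called without NS replicate 1 (adjusted p = 0.0764) or without COL replicate 1 (0.0554).

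Megf10 was highest in oligodendrocytes and astrocytes and was not called different in any cell type. Oligodendrocytes led, with 247.7 and 248.8 CPM in NS and 214.9 and 229.4 CPM in COL (log2 fold change -0.08 ± 0.15 SE, adjusted p = 0.725). Astrocytes followed with 193 and 203.9 CPM against 195.4 and 158 CPM (adjusted p = 0.476). Oligodendrocytes held 47.6% to 65.7% of all Megf10 UMIs of a library, whereas microglia held only 6 and 7 UMIs in NS and 19 and 48 in COL. Vascular nuclei held 1 and 10 UMIs in NS and 16 and 19 in COL, or 10.1 and 44.1 CPM against 74.6 and 62.0 CPM (adjusted p = 0.42).

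In OPC, Megf10 stood at 81.6 and 91.9 CPM in NS and at 61.5 and 61.9 CPM in COL. The groups did not overlap, but the difference missed the threshold (log2 fold change -0.47 ± 0.17 SE, adjusted p = 0.069), and it passed with the replicate number as a block (adjusted p = 0.0398). The OPC effect was below the mean of the other types by 0.90 on the log2 scale (log2 difference -0.90, adjusted p = 0.0178), a difference that was not called without NS replicate 1, NS replicate 2 or COL replicate 2.

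Of the scavenger receptors, Msr1 had the largest ratio of COL to NS over all nuclei. MSR1 is the class A macrophage scavenger receptor, which binds acetylated lipoproteins and other polyanions. Microglia held 2 and 3 Msr1 UMIs in NS and 230 and 386 in COL, or 2.69 and 4.19 CPM against 132.2 and 136.1 CPM. The ratio of the summed levels was 39.3 (counting interval 16.7 to 121), without overlap (log2 fold change 5.30 ± 0.35 SE, adjusted p = 1.45e-06). Thinned to 1000 UMIs, 0% and 0.293% of NS microglia and 8.89% and 8.39% of COL microglia held an Msr1 UMI, against 0.0224% to 0.328% of neurons in the 4 libraries. Both COL microglia clusters held it, at 118.8 and 114.0 CPM in cluster 10 and at 162.7 and 178.7 CPM in the dividing cluster.

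Macrophages of the COL libraries were higher in Msr1 than microglia, at 341.2 and 237.2 CPM. Oligodendrocytes held 2 and 0 Msr1 UMIs in NS and 27 and 53 in COL (ratio 38.0, counting interval 10.2 to 319, adjusted p = 0.00706), with both NS molecules in NS replicate 1, and the COL level there was at most 5.22 CPM. Such low counts rose in other types as well. Neurons held 1 and 4 Msr1 UMIs in NS and 66 and 117 in COL, which edgeR did not call (adjusted p = 0.104). Astrocytes held 0 and 0 against 3 and 14, and OPC 1 and 0 against 4 and 19, too few to be tested. The neuron-like cluster set apart held 0 and 0 in NS and 18 and 13 in COL. Together, microglia and macrophages held 80.7% and 78.3% of all Msr1 UMIs of the COL libraries. Over all nuclei the level went from 0.116 and 0.16 CPM to 13.2 and 17.2 CPM (ratio 111, counting interval 72 to 183, adjusted p = 0.00102). In such sums, more cells of a type and more RNA per cell cannot be told apart.

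CD36, a class B scavenger receptor for oxidised lipoproteins and fatty acids, was all but absent from NS microglia. They held 0 and 1 Cd36 UMI in NS and 34 and 66 UMIs in COL. With a single NS molecule the ratio is poorly bounded (31.9, counting interval 5.59 to 1270), and edgeR called it (adjusted p = 0.000595), also without NS replicate 1 (log2 fold change 3.90, adjusted p = 0.0329). COL microglia stood at 19.5 and 23.3 CPM and COL macrophages at 139.3 and 101.9 CPM. Macrophages held 68.5% and 51.9% of all Cd36 UMIs of the COL libraries. When each nucleus was named by its marker score instead, 154 and 173 nuclei of the COL libraries were macrophages, in place of 317 and 470, their mean Cd36 level was 142 CPM in place of 120.6 CPM, and they held a mean of 40.6% of Cd36 UMIs in place of 60.2% and 34.0% of Msr1 UMIs in place of 50.9%.

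Cd36 is also known from capillary endothelium. The 26 endothelial nuclei of the 4 libraries held 0 Cd36 UMIs among 133504, which allows a level of up to 22.5 CPM there, and all vascular nuclei held 0 among 846924, which allows up to 3.54 CPM. Neurons held 60 and 11 Cd36 UMIs in NS and 28 and 91 in COL. The groups overlapped there, and no difference was called (adjusted p = 0.35). Over all nuclei Cd36 was at 1.17 and 0.378 CPM in NS and at 4.39 and 6.58 CPM in COL (log2 fold change 2.96 ± 0.49 SE, adjusted p = 0.0227), and the log2 fold change was 3.93 without NS replicate 1 (adjusted p = 0.000399).

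Stab1 encodes Stabilin-1, a scavenger receptor of macrophages and sinusoidal endothelium that takes up matrix fragments and modified lipoproteins. In microglia it rose from 144.1 and 184.5 CPM in NS to 346.6 and 352.6 CPM in COL. The groups did not overlap (log2 fold change 1.14 ± 0.17 SE, adjusted p = 0.000398), and 12.9% and 12.6% of NS microglia and 24.8% and 28.1% of COL microglia held a Stab1 UMI at 1000 UMIs per nucleus. COL macrophages were at much the same level as COL microglia, with 322.6 and 314.6 CPM.

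In the macroglia Stab1 was called higher from very low counts. Oligodendrocytes held 1 and 8 UMIs in NS and 66 and 144 in COL (ratio 22.2, counting interval 11.5 to 49.2, adjusted p = 0.00414). Astrocytes held 5 and 2 UMIs against 14 and 47 (ratio 20.1, interval 9.17 to 52.0, adjusted p = 0.00156), and OPC held 2 and 1 UMIs against 14 and 49 (ratio 20.4, interval 6.66 to 101, adjusted p = 0.00154). The groups did not overlap in any of the 3 types, but COL levels there were at most 21.3 CPM. The size rested on single libraries. In oligodendrocytes the log2 fold change of 4.50 became 6.27 without NS replicate 2 and 3.89 without NS replicate 1, and without COL replicate 2 that of 4.20 in each of the others became 3.48 in astrocytes and 3.52 in OPC, still called in each case. In neurons 50 and 38 UMIs stood against 208 and 353, which was not called in the main setting (adjusted p = 0.104) but was in 5 of 11 alternatives. The microglial effect on Stab1 was smaller than the mean of the other types (log2 difference -2.08, adjusted p = 0.000247), and this difference was lost without COL replicate 2 (log2 difference -1.26, adjusted p = 0.24).

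COLEC12 is a scavenger receptor with a collagen-like domain and a C-type lectin domain. Colec12 was highest in vascular nuclei, at 774.0 and 719.3 CPM in NS and at 1049 and 777.0 CPM in COL (log2 fold change 0.23 ± 0.30 SE, adjusted p = 0.748). Vascular nuclei were few, so their subtypes were pooled over the libraries of a group. Pericytes and smooth muscle held 959 CPM in NS (42 nuclei) and 1050 CPM in COL (21 nuclei), vascular fibroblasts 777 CPM (18 nuclei) and 1250 CPM (28 nuclei), and endothelial nuclei 141 CPM and 173 CPM (13 nuclei each). The nuclei that were not assigned to a subtype held 691 CPM (32 nuclei) and 444 CPM (15 nuclei). Endothelial nuclei were lowest in both groups, and the order of the other subtypes differed between the groups. Astrocytes were next among the cell types, at 99.7 and 77.6 CPM in NS and 122 and 90.4 CPM in COL, with overlapping groups (adjusted p = 0.433).

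In microglia Colec12 went from 0 and 5 UMIs in NS to 79 and 145 UMIs in COL, or from 0 and 6.99 CPM to 45.4 and 51.1 CPM. The ratio was 14.3 (counting interval 6.03 to 44.4), and edgeR called it (log2 fold change 3.83 ± 0.56 SE, adjusted p = 0.000357) but DESeq2 did not (adjusted p = 0.0701). All 5 NS UMIs were in NS replicate 2, so without it the NS level is 0 and the fold has no upper bound, whereas without NS replicate 1 the log2 fold change was 2.80 (adjusted p = 0.0235). With each nucleus named by its marker score it was 2.01 (adjusted p = 0.00676). The dividing cluster held 91.9 and 67.0 CPM and the larger COL cluster 24.8 and 42.9 CPM. Macrophages held 24.7 and 22.8 CPM, below COL microglia in both libraries. The effect in microglia exceeded that in the other types by 3.62 on the log2 scale (adjusted p = 0.00017), or by 2.55 without NS replicate 1. That in astrocytes was below the mean of the others (log2 difference -1.01, adjusted p = 0.0232), which was lost without NS replicate 1 (log2 difference -0.70) and was -2.66 without NS replicate 2. The mean for astrocytes includes the microglial rise. Within types the log2 fold change was 0.24 in astrocytes and 3.83 in microglia. It ranged from -0.03 to 0.99 in OPC, vascular nuclei, oligodendrocytes and neurons.

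Neurons held 43.0% to 56.8% of all Colec12 UMIs, and the neuron-like cluster set apart held a further 5.08% to 12.5%. Within neurons the gene varied by cluster. COL replicate 1 stood apart, at 33.1 CPM against 16.4 CPM in COL replicate 2 and 14.2 and 14.1 CPM in NS (adjusted p = 0.158). Neuron cluster 7 held 69.3 and 35.1 CPM in NS and 60.4 and 60.2 CPM in COL.

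Scarb1, the receptor for high-density lipoprotein, was detected in all cell types tested and showed no called difference. Across neurons, glia and vascular nuclei it ranged from 13.7 to 70.4 CPM in the 4 libraries. In microglia it was at 39.1 and 33.6 CPM in NS and at 49.4 and 43.7 CPM in COL. These groups did not overlap, yet the difference was not called (log2 fold change 0.40 ± 0.26 SE, adjusted p = 0.285). Vascular subtypes pooled over libraries rested on few UMIs. Endothelial nuclei held 165 CPM (22 UMIs in 26 nuclei), against 44.4 CPM in pericytes and smooth muscle (10 UMIs in 63 nuclei). Vascular fibroblasts held 12.8 CPM (4 UMIs in 46 nuclei) and the nuclei not assigned to a subtype 17.0 CPM (3 UMIs in 47 nuclei).

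**Figure D2:**
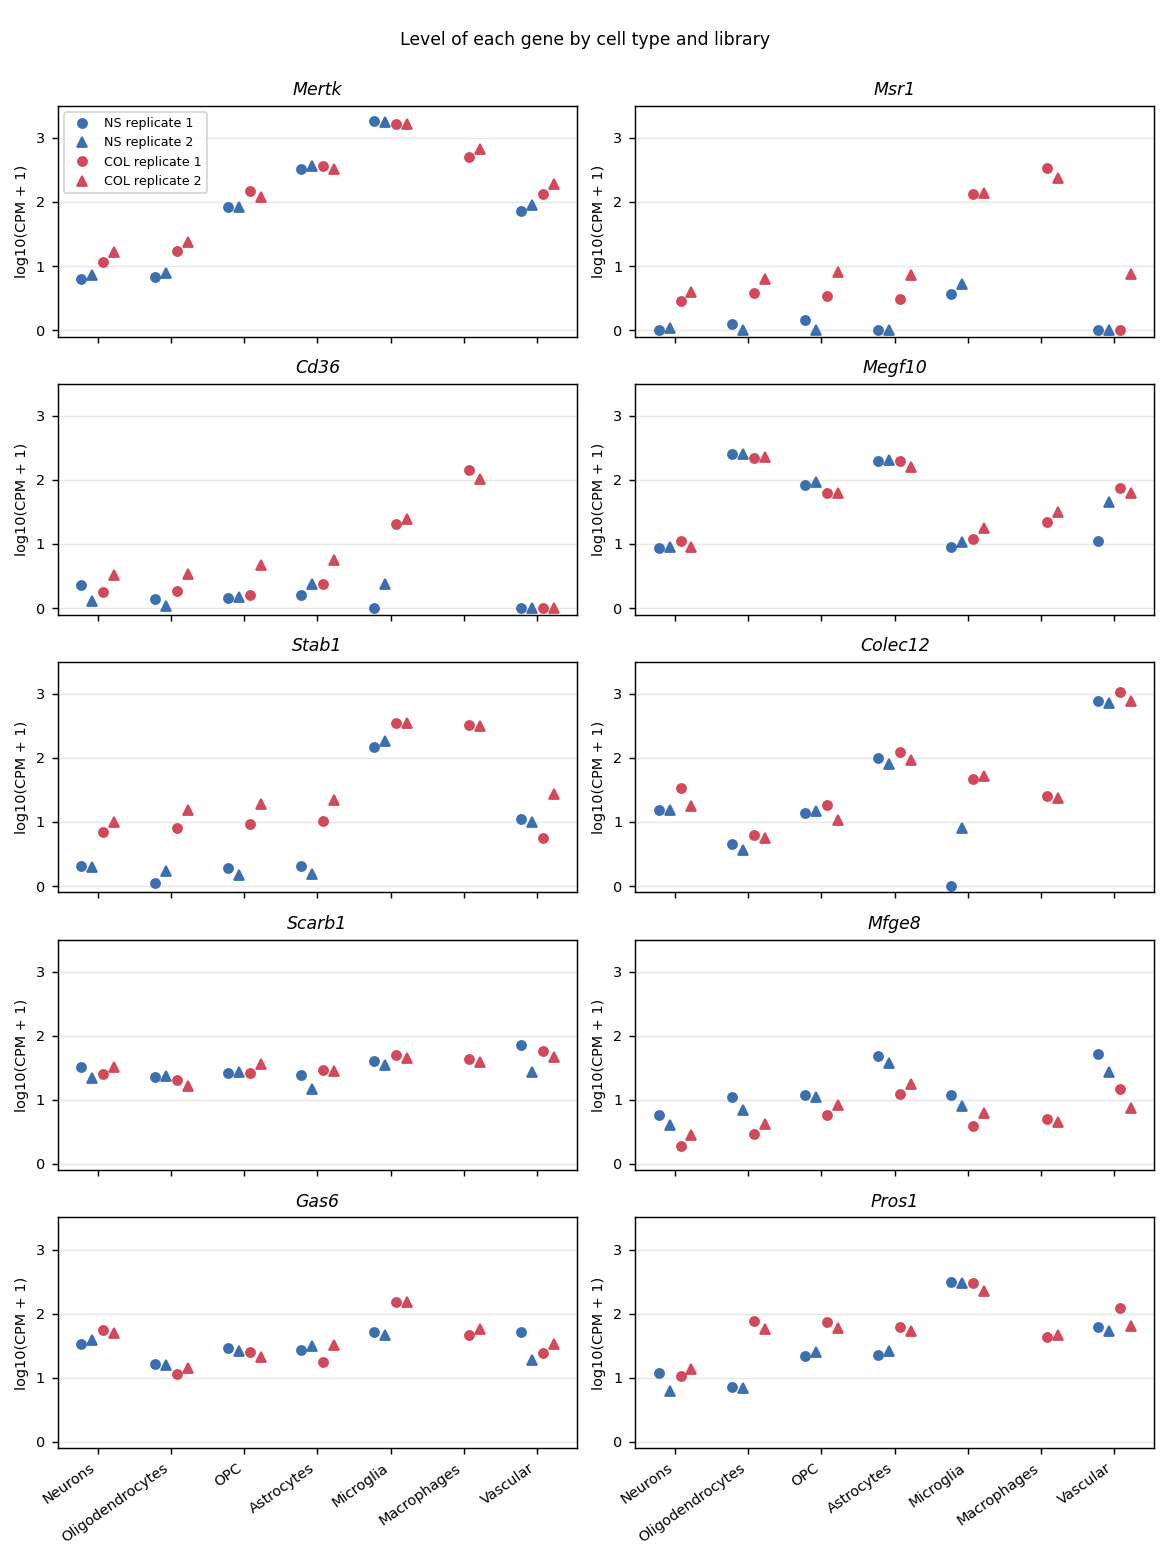
Level of each gene as log10(CPM + 1) (vertical axis) by cell type (horizontal axis), with a point for each library: blue for NS and red for COL, circles for replicate 1 and triangles for replicate 2. Macrophages are drawn for COL only, since NS held 2 and 5 of them. Mertk is highest in microglia in all 4 libraries, Msr1 and Cd36 rise from near 0 in NS microglia, and the Pros1 points of oligodendrocytes, OPC and astrocytes lie higher in COL.

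Over all nuclei of a library, 7 of the 10 genes were called (6 higher and Mfge8 lower), against 9.45% of 25570 genes. Mertk went from 52.3 and 53.4 CPM to 79.5 and 129.2 CPM (log2 fold change 1.11 ± 0.19 SE, adjusted p = 0.0259). Stab1 went from 2.59 and 3.14 CPM to 21.9 and 36.4 CPM (log2 fold change 3.47 ± 0.26 SE, adjusted p = 0.00222), and Pros1 from 14.0 and 10.8 CPM to 30.2 and 33.1 CPM (ratio 2.53, counting interval 2.39 to 2.67, adjusted p = 0.00677). For Mertk the sum rose although neither microglia nor astrocytes showed a called difference. Microglia and macrophages held 33.6% and 35.2% of its UMIs in NS and 66.0% and 69.0% in COL, and astrocytes 37.7% and 36.5% against 9.70% and 7.92%. Colec12 (log2 fold change 0.60, adjusted p = 0.128) was called without the filter on low counts (adjusted p = 0.0235) and without COL replicate 2 (adjusted p = 0.0145).

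**Figure D3:**
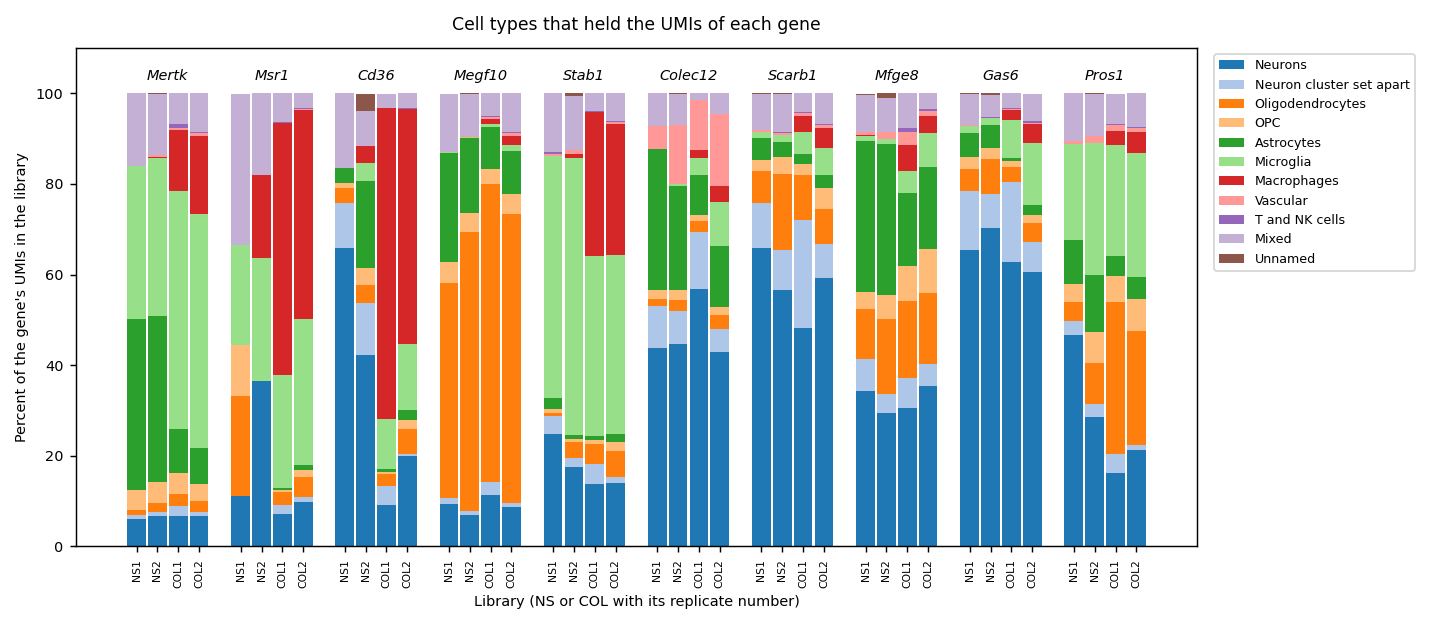
Percent of each gene's UMIs (vertical axis) held by each cell type (colours) in each of the 4 libraries (bars). The microglia and macrophage parts of Mertk grow from 33.6% and 35.2% in NS to 66.0% and 69.0% in COL, macrophages hold 68.5% and 51.9% of Cd36 UMIs in COL, and the oligodendrocyte part of Pros1 grows from 4.13% and 9.18% to 33.6% and 25.1%.

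Transcripts of microglia and macrophages were also found in nuclei of other types, and their levels stand beside the low-level calls above. The summed level of 7 macrophage markers went from 2.44 and 3.91 CPM in NS to 20.8 and 35.1 CPM in COL oligodendrocytes, from 3.65 and 3.87 to 18.9 and 30.0 CPM in OPC, from 3.77 and 4.04 to 24.9 and 43.6 CPM in astrocytes and from 7.40 and 8.69 to 11.4 and 24.6 CPM in neurons. In COL all 7 were detected in these types, apart from Mrc1 in OPC of COL replicate 2. The 10 microglia markers overlapped between the groups in oligodendrocytes (129.1 and 153.9 against 122.6 and 181.4 CPM), astrocytes and neurons, but not in OPC (112.1 and 150.4 against 171.5 and 181.1 CPM). Their part in the members' differences was not tested.

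The levels were also set against those in microglia and macrophages of the same library. In COL oligodendrocytes the macrophage markers stood at 1.48% and 2.74% of that level and the microglia markers at 3.48% and 5.02%. There Msr1 stood at 1.25% and 2.88%, Stab1 at 2.08% and 4.23% and Mertk at 1.41% and 1.92%, while Pros1 stood at 41.7% and 40.0%. Pros1 was at 40.2% and 42.1% in OPC and at 33.8% and 36.5% in astrocytes. Mertk was at 32.1% and 26.9% in astrocytes and at 13.1% and 10.0% in OPC, and Stab1 at 2.81% and 6.36% in astrocytes and at 2.47% and 5.41% in OPC. The microglia markers stood at 3.94% and 6.16% in astrocytes and at 4.87% and 5.02% in OPC, and the macrophage markers at 1.78% and 3.41% and at 1.35% and 2.35%. In NS the microglia markers were lower, at 1.56% and 1.9% in oligodendrocytes, 1.57% and 1.98% in astrocytes and 1.35% and 1.85% in OPC. Their level in microglia and macrophages was 8281 and 8114 CPM in NS and 3523 and 3611 CPM in COL. Macrophage markers ran the other way, with 14.0% and 3.88% in NS oligodendrocytes, against 17.41 and 100.8 CPM in NS microglia and macrophages.

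**Figure D4:**
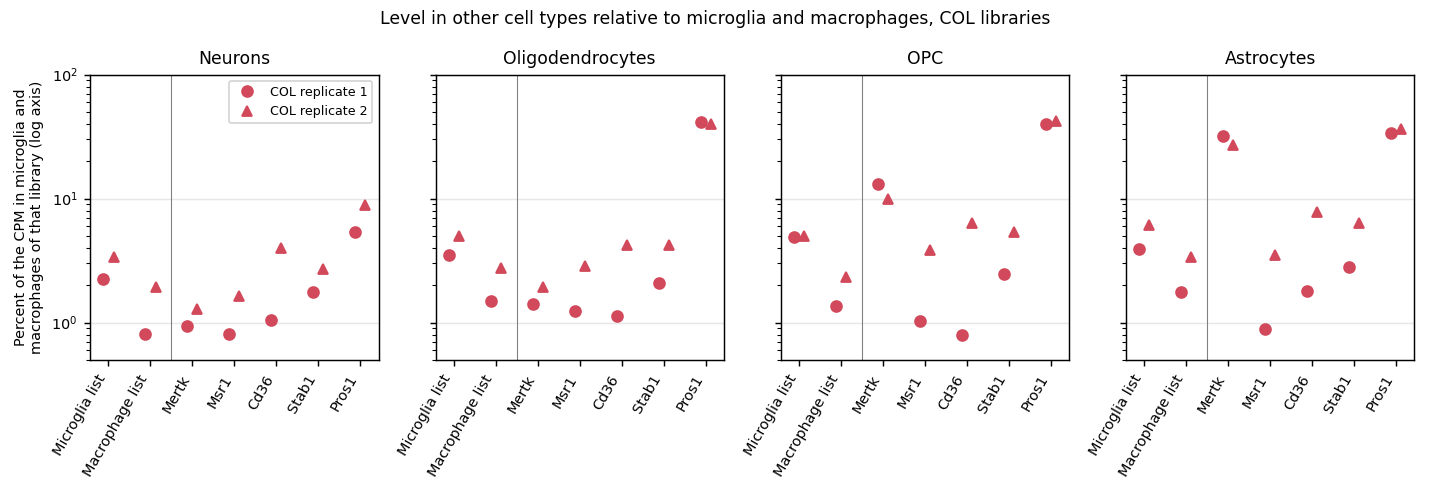
Level in neurons, oligodendrocytes, OPC and astrocytes of the 2 COL libraries as a percent of the level in microglia and macrophages of the same library (vertical axis, log scale), for the summed microglia and macrophage markers and for 5 members. Msr1, Cd36 and Stab1 and both marker lists lie below 10% in the 4 cell types, and Pros1 lies at 33.8% to 42.1% in the 3 glial types.

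COL microglia also carried macrophage markers. The 7 macrophage markers summed to 8.08 and 72.7 CPM in NS microglia and to 171.3 and 219.3 CPM in COL microglia, and the 10 microglia markers to 8322 and 8192 CPM in NS and 5307 and 5147 CPM in COL. In COL microglia the macrophage markers stood at 6.06% and 8.53% of their level in COL macrophages. Msr1 there stood at 38.7% and 57.4% of the macrophage level, Cd36 at 14.0% and 22.8%, Stab1 at 107% and 112%, Colec12 at 184% and 224% and Gas6 at 339% and 266%. The part of macrophage RNA in these levels was not tested. All 5 calls in microglia held when the dividing cluster was left out.

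Promoter sequence is shown for 4 members that moved, 2 of them in microglia (Stab1 and Gas6), 1 in macroglia (Pros1) and 1 that fell (Mfge8). RefSeq sequence on GRCm38.p6 was at hand for 6 of the 10 members, the others being Mertk and Cd36, and Msr1, Megf10, Colec12 and Scarb1 were not matched. The windows are the 250 bases before the start in RefSeq, which for Gas6 lies upstream of the GENCODE start given above, written 5′ to 3′ on the strand of the gene, and no exon of GENCODE M21 overlaps them. Capitals mark GAGGAA, the core of the motif bound by PU.1, a transcription factor of myeloid cells.
Stab1, chr14:31168642-31168891, minus strand: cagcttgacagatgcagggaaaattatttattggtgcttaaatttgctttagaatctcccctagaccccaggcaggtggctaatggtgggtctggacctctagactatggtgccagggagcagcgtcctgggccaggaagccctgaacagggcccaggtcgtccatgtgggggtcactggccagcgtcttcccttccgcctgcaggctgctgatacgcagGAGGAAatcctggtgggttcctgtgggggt
Gas6, chr8:13494536-13494785, minus strand: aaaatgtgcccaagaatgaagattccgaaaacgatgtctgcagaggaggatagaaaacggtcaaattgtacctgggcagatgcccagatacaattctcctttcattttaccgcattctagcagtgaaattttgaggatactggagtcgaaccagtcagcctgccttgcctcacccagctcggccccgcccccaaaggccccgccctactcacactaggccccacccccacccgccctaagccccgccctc
Pros1, chr16:62854057-62854306, plus strand: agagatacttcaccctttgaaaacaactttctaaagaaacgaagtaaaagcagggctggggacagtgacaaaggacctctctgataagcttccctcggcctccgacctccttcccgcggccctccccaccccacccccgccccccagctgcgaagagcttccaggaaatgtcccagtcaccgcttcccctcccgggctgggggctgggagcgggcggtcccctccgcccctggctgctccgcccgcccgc
Mfge8, chr7:79149061-79149310, minus strand: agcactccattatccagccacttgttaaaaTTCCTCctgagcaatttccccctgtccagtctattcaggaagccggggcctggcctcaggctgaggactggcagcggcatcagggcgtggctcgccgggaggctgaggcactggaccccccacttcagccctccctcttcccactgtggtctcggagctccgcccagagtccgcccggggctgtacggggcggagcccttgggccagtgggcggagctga

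GAGGAA occurred on either strand in the windows of Stab1 and Mfge8, once each, and in none of the other 4, while 23.3% of all 32851 promoter windows of this length held it. The Cd36 window (chr5:17835897-17836146) lies inside the GENCODE gene, away from the gene start given above. Neither the AP-1 motif TGANTCA, present in 6.75% of all windows, nor the E-box CACGTG, present in 6.02%, was found in the 6. A match to these letters is a description of the window, not a binding site.

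Other genes of the pathway were counted from 4 lists that hold 54 genes in all, none of them a member. In microglia 38 were tested, and 13 were higher and 2 lower in COL, against 28.9% called over all genes. Their median log2 fold change was 0.28 against 0.0 over all genes, but it includes the 7 genes described next, and no median without them was computed. Of the 38, 7 passed the filter on low counts through the COL libraries alone, so that a difference was built into their being tested. These were Cd300lf, Lgals3, Thbs1, Axl, Cd44, Clec7a and Cxcl16, and all 7 are among the 13 higher. Of the other 31, 6 were higher and 2 lower. Among other phosphatidylserine receptors and bridging proteins 5 of 15 were called, all higher, which were Cd300lf, Lgals3, Edil3, Thbs1 and Axl. Cd300lf, a myeloid phosphatidylserine receptor, stood at 5.39 and 5.59 CPM in NS and at 83.9 and 86.4 CPM in COL microglia (log2 fold change 3.98 ± 0.34 SE). Lgals3, which encodes galectin-3, went from 1 UMI in all to 261 (ratio 83.2, counting interval 14.8 to 3300), and Thbs1, which encodes thrombospondin-1, from 1 UMI to 70 (ratio 22.3, interval 3.87 to 893). Edil3 rose by 1.23 ± 0.16 on the log2 scale. Other scavenger receptors were called in 3 of 5 cases, all higher, which were Cd44 (log2 fold change 3.49 ± 0.45), Clec7a (3.11 ± 0.65), the dectin-1 receptor, and Cxcl16 (3 against 53 UMIs).

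Of the engulfment machinery in microglia, Ptk2, Abca7, Elmo2 and Dock1 were higher and Elmo1 lower (log2 fold change -0.51 ± 0.16 SE), among 10 tested. COL oligodendrocytes held 620 and 520 CPM of Ptk2, 890.3 and 714.3 of Dock1 and 3214 and 2558 of Edil3 (TMM-scaled). COL microglia held 110.5 and 126.5, 319.4 and 321.1, and 348.4 and 331.9. Abca7 and Elmo2 were lower in COL oligodendrocytes than in COL microglia. The part of oligodendrocyte RNA in the microglial levels was not tested. Of the genes for phosphatidylserine exposure and its brakes, Ano6, a scramblase, was higher (0.65 ± 0.16) and Tmem30a, the partner subunit of the flippases that keep phosphatidylserine inside, was lower (-0.95 ± 0.20), among 8 tested. Tmem30a stood at 176.4 and 156.6 CPM in NS and at 69.0 and 96.6 CPM in COL microglia.

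The same lists were counted in the macroglia. In astrocytes 8 of 37 were higher and 2 lower (18.9% called over all genes), in oligodendrocytes 10 of 40 were higher (22.3% over all genes) and in OPC 7 of 32 were higher (18.5% over all genes). Those that passed the filter through COL alone numbered 4 in astrocytes, 3 in oligodendrocytes and 4 in OPC, all called higher, with Lgals3 and Thbs1 among them in each type. Of the others, 4 of 33 were higher and 2 lower in astrocytes, 7 of 37 were higher in oligodendrocytes and 3 of 28 in OPC. The shares over all genes include genes that passed in either way. Lgals3, Thbs1, Cd44 and Ano6 were called higher in all 3. The part of RNA from other cells in these differences was not tested. Oligodendrocytes held 2.31 and 3.38 CPM of Cd44 in NS and 25.3 and 26.9 CPM in COL (log2 fold change 3.23 ± 0.27 SE), and 10.0 and 9.69 CPM of Ano6 against 32.4 and 27.7 CPM (1.69 ± 0.21). Elmo1 was higher in astrocytes (log2 fold change 1.48 ± 0.17), opposite to microglia, and the difference between these types was not tested. In neurons 0 of 49 and in vascular nuclei 0 of 24 were called by edgeR, with 17 and 2 under an unadjusted p of 0.05, against 6562 of 23257 and 899 of 5142 genes in all. DESeq2 called 8 of the 49 in neurons, against 2295 of all genes, and 0 of the 24 in vascular nuclei, against 34 of all genes.

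**Figure D5:**
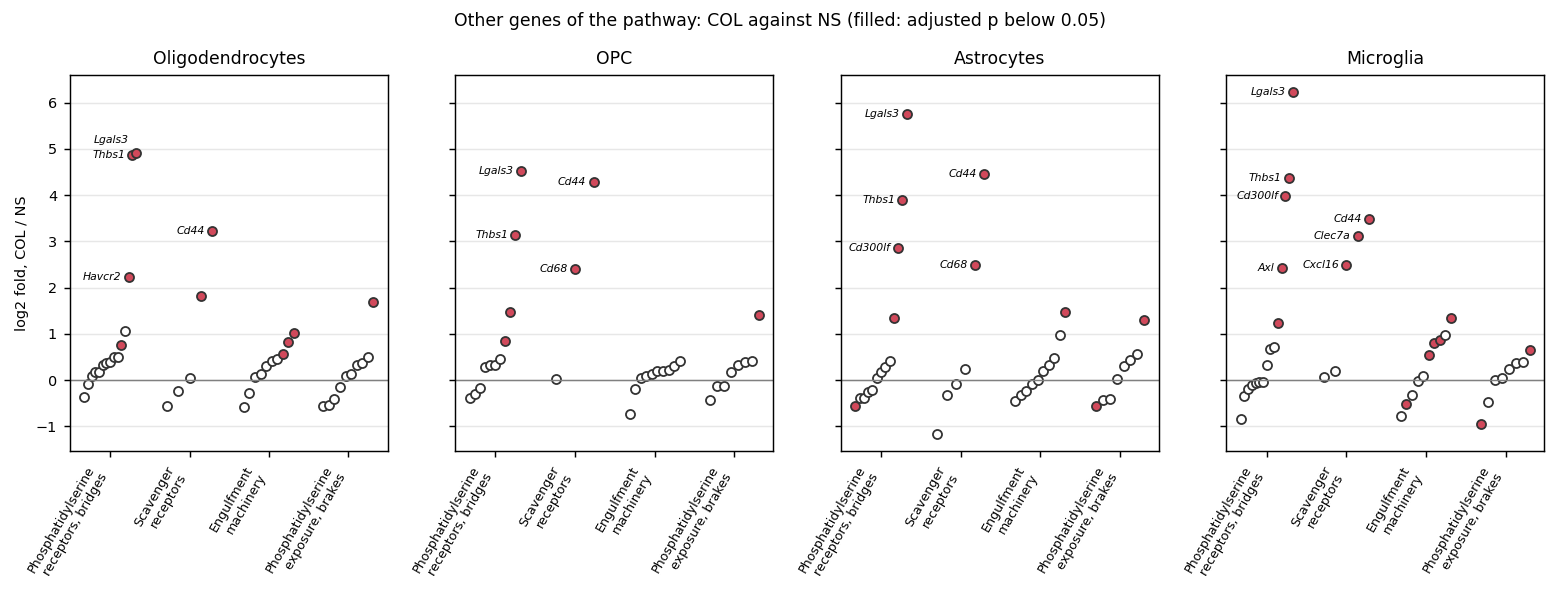
Log2 fold change of COL against NS (vertical axis) of the pathway genes outside the 10, in 4 cell types, sorted within each of 4 lists. Filled points had an adjusted p below 0.05 in edgeR. Lgals3, Thbs1 and Cd44 lie among the highest points of each cell type.

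As a description of shared patterns, each member was correlated with 16916 genes over the 24 sums of library and cell type, which share libraries and depth. The closest genes to Mertk were Eif2ak2, Entpd1 and Il15 (Pearson r 0.964, 0.964 and 0.955), to Stab1 Ctss, Inpp5d and Pik3ap1 (0.961, 0.958 and 0.956) and to Msr1 Ifi207, Lilr4b and Ms4a7 (0.974, 0.948 and 0.933). Cd36 was closest to Ccl3, Zc3h12d and Lilr4b (0.923, 0.92 and 0.909), and Colec12 to Cped1, Adamts12 and Adgre5 (0.942, 0.925 and 0.923). Megf10 was closest to Gm36944, Igsf11 and Gpm6b (0.955, 0.95 and 0.945). Pros1 was closest to Tbck, Ddx60 and Gab2 (0.931, 0.93 and 0.925), Scarb1 to Fndc3a, Cul4a and Zfp52 (0.891, 0.877 and 0.864) and Gas6 to Atp6v0a1, Vps13c and Atxn7l1 (0.879, 0.85 and 0.844).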

How the data were processed

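The authors prepared 10x Chromium libraries of thalamic nuclei, processed the reads with Cell Ranger 1.2.0 against mm10 and deposited raw UMI counts per gene and barcode. The members and lists were chosen with earlier results of these data known. A barcode was kept if it had over 50 genes and a mitochondrial share under 5%. Nuclei were clustered in Seurat 5.3.0 (5000 variable genes without members or pathway genes, 15 PCs, resolution 0.8) and named from marker lists by a rule set after the data had been seen. A neuron-like cluster with a T cell gene among its leading genes was set apart, and doublet-rich clusters were called mixed. The vascular subtypes were joined to reach 20 nuclei per library.

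Sums of UMI counts over the nuclei of a type in a library entered edgeR 4.0.16 (TMM normalization, its default filter filterByExpr and the quasi-likelihood F test, adjusted by Benjamini-Hochberg), and SE is the log2 fold change over the root of F. Fold changes are on TMM-scaled counts and can differ from ratios of CPM. DESeq2 1.42.0 was an alternative. The difference between cell types was a contrast in a fit with the library as a block. The tests were checked on simulated data. Counting intervals are exact 95% intervals (binomial for shares, conditional for ratios), limits for 0 use 3 counts, and both cover counting error only. The replicates may share preparation, so p-values measure the spread between these libraries. The libraries held 77546840, 68723738, 69489118 and 69495483 UMIs. All 10 members were named, and of each pathway list at most 4 called genes per direction and cell type by adjusted p, with Axl named beyond that rule. Doublets were kept in the main setting. Simulated-doublet scores marked 4.91% to 8.67% of a library, a share set in advance from its number of nuclei. They found 73.5% and 71.5% of simulated doublets in the NS libraries and 60.0% and 59.0% in the COL libraries. The genes whose pattern was most like that of Mfge8 are not reported here.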

Additional observations from a re-analysis of the deposited data

Results flagged for a closer look

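The COL effect differed between a cell type and the mean of the other 5 types in 11 cases among the 10 genes, each by edgeR's contrast in a fit over all types with Benjamini-Hochberg adjustment. In microglia the log2 differences were 3.62 for Colec12 (adjusted p = 0.00017), 1.85 for Gas6 (5.4e-05), -0.89 for Mertk (0.00116), -1.59 for Pros1 (1.96e-05) and -2.08 for Stab1 (0.000247). In oligodendrocytes they were 2.73 for Pros1 (adjusted p = 5.01e-07) and 1.13 for Mertk (0.00343), and in astrocytes -1.02 for Mertk (0.000881) and -1.01 for Colec12 (0.0232). In neurons Pros1 differed by -0.78 (adjusted p = 0.0413), and in OPC Megf10 by -0.90 (0.0178). A positive value means a larger rise or smaller fall in COL than in the other types, whose mean includes types where the gene was near 0. A large effect in 1 type also moves the differences of the other types the opposite way, so the 11 cases are not independent.

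Without single libraries 5 of these 11 were lost in at least 1 case. Colec12 in astrocytes was lost without NS replicate 1 (-0.70), Stab1 in microglia without COL replicate 2 (-1.26), Pros1 in neurons without NS replicate 1 (-0.18) or COL replicate 1 (-0.45), Mertk in oligodendrocytes without NS replicate 1 (adjusted p = 0.0742) or NS replicate 2 (0.0866), and Megf10 in OPC without NS replicate 1, NS replicate 2 or COL replicate 2.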

How the results depend on the processing

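Over the alternatives run, 519 of 578 recomputed log2 fold changes of the 10 genes kept their direction and their side of the threshold, 24 were newly called, 11 lost the call and 24 changed sign, and of the differences between cell types 46 of 55 were kept and 9 lost. All sign changes were of differences that were not called. They were Mertk in astrocytes with DESeq2 (0.01), by marker score of each nucleus (0.33), with doublets removed (0.02) and without single libraries (-0.15 to 0.12), and Mertk in microglia without the filter on low counts (0.02), by marker score (0.21), thinned to 2000 UMIs (0.03) and without dividing nuclei (0.13). By marker score, Megf10 went to 0.10 in astrocytes and -0.40 in microglia, Scarb1 to -0.06 in OPC, Pros1 to 0.08 in microglia and Colec12 to 0.46 in OPC. Colec12 in OPC was 0.03 with DESeq2, 0.01 without the filter, 0.01 with doublets removed and -0.45 to 0.43 without single libraries, and in vascular nuclei -0.14 with doublets removed. Without single libraries, Megf10 over all nuclei ranged from -0.36 to 0.17, Scarb1 in vascular nuclei from -0.47 to 0.87, Gas6 in astrocytes from -0.73 to 0.15 and Pros1 in microglia from -0.42 to 0.03.

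Counts of called genes moved more. DESeq2 called 1525 genes in astrocytes, 1798 in microglia, 2295 in neurons, 1047 in OPC, 34 in vascular nuclei and 4533 over all nuclei. Without the filter the counts were 5110 in neurons, 225 in vascular nuclei and 6893 over all nuclei. By marker score they were 1749 in astrocytes, 2 in neurons and 0 in vascular nuclei, and with doublets removed 0 in vascular nuclei. Without single libraries they ranged over 1172 (without COL replicate 1) to 2485 in astrocytes, 1060 (without NS replicate 1) to 3725 in microglia, 0 to 3646 in neurons (31 without COL replicate 1, 3646 without COL replicate 2), 1752 (without NS replicate 2) to 6995 (without COL replicate 2) in oligodendrocytes, 1083 (without NS replicate 1) to 3426 in OPC, 89 (without COL replicate 1) to 275 (without COL replicate 2) in vascular nuclei and 1603 (without NS replicate 2) to 7012 (without COL replicate 2) over all nuclei. Of the 10 genes, DESeq2 called 5 in neurons, the fit without the filter 6 and fits without single libraries 0 to 6. Differences between cell types without the filter were called for 2 of the 10 in neurons, 2 in OPC and 1 in vascular nuclei, and without single libraries for 1 to 2 in astrocytes, 0 to 1 in neurons, 1 to 2 in oligodendrocytes and 0 to 2 in OPC.

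Replicate numbers are shared by the groups, but same-numbered libraries showed deviations that correlated at only -0.027 to 0.156 by cell type, with 2 pairs, so the numbers were not taken as pairs. With the replicate number as a block, 952 genes and 3 of the 10 were called in neurons, 93 genes in vascular nuclei and 5563 over all nuclei. The cause of these changes was not tested. Of 520 mean levels recomputed under other naming, doublet removal, thinning or a resolution of 1.2, 405 moved by less than the SD between libraries, and of 260 shares of UMIs 183 did.

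With 2 libraries per group and deeper nuclei in COL, small differences in low genes could not be resolved, and macrophages, with 2 and 5 NS nuclei, gave no comparison. Naming depended on a rule set after seeing the data. In alternatives chosen after seeing the data (the set-apart cluster joined to neurons, doublets removed over all nuclei, no dividing microglia), no count of called members moved beyond 1.5 times.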
